A study of Homo sapiens with 24 samples.

Results

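The genes of the proteasome were followed in U251 cells, an established human glioblastoma cell line, exposed to G-1, a synthetic agonist of the G protein-coupled estrogen receptor GPER. The members are all genes whose symbol starts with PSMA to PSMG followed by a number, PSMC3IP included, which gave 49 genes measured by 66 probes. Of these, 47 were tested among 14232 named genes, the filter being a signal well above background in every array of 1 or more groups. The other two, PSMA8 and PSMB11, the tissue-specific core subunits of testis and thymus, were not well above background on any of the 24 arrays and have no measured change. The 47 genes comprise 7 alpha and 7 beta subunits of the core, 3 immunoproteasome subunits, 6 ATPases and 11 non-ATPase subunits of the regulatory cap, 4 other activators, 7 assembly factors, 1 inhibitor (PSMF1) and PSMC3IP.

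The proteasome is the main protease of the cytosol and nucleus. Its core is a barrel of stacked rings, in which alpha subunits form the gate and the beta subunits PSMB5, PSMB6 and PSMB7 carry the active sites, and its cap binds ubiquitin-tagged proteins, unfolds them with a ring of ATPases and threads them into the core. Interferon-γ leads cells to replace the active subunits with PSMB8, PSMB9 and PSMB10, the immunoproteasome, and to raise PSME1 and PSME2, which favours peptides for display on class I molecules. When proteasome activity falls short, the membrane-bound factor NFE2L1 is cleaved and raises the transcription of core and cap genes together.

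Cells were kept for 24 h in charcoal-stripped serum, which holds little steroid hormone, and then received DMSO (the solvent), G-1 at the dose labelled IC50, or G-1 at 1 µM, each for 24 h or 72 h. Each of the 6 groups had 4 biological replicates, each hybridised to 1 one-colour Agilent array, which gives 24 arrays. Only RNA of this one cell line was measured, so the values say nothing about subunit protein or protease activity, and a change in the mixture of cell states cannot be told apart from a change per cell. The duration was taken from the titles, since a second label contradicts them for the IC50 group of 24 h and the 1 µM group of 72 h. A value is the log2 intensity of the brightest probe of the gene above the 75th percentile of its array, and differences are log2 fold changes with their SE from 1 limma fit. A gene was called when its adjusted p was under 0.05, without a minimum fold change.

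The 16 DMSO and IC50 arrays lay on slides 1 and 2 of the first scanning session, and all 8 arrays of 1 µM on slide 3 of the second. The effect of 1 µM against DMSO or IC50 at one duration and the effect of slide and session cannot be told apart. Per array, 41.1 to 44.5% of spots passed the background flag in session 1 and 38.0 to 40.7% in session 2. The glial and glioma markers VIM, NES, CD44, GFAP, S100B, SOX9 and SOX2 were well above background on all 24 arrays, while the leukocyte markers PTPRC, CD3E and AIF1, EPCAM, PECAM1 and SYP were so on 0 arrays. The epithelial keratins KRT8 and KRT18 and the neuronal RBFOX3 were detected on all 24 arrays and the endothelial CDH5 on 16. At 1 µM for 72 h, GFAP was lower by -2.71 ± 0.31 log2 (SE) and S100B by -1.96 ± 0.20 log2, so the marker profile of the cells moved with the results below, and its part in them was not tested.

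Most of the proteasome genes were higher, by small amounts, on the arrays of 1 µM G-1 for 72 h than on those of DMSO. Of the 47 genes, 31 rose and 4 fell, which is 66.0% and 8.51%, while 35.2% of all genes tested rose and 31.0% fell. The median change was 0.37 log2 over the proteasome genes and 0.03 log2 over all genes. The changes ranged from -0.54 log2 for PSMB9 to 1.18 log2 for PSMC3IP. Only PSMC3IP passed a fold change of 2, compared with 12.3% of all genes in either direction. The arrays of the 2 groups did not overlap in 35 of the 47 genes, 33 of them called, beside 58.7% of all genes. At 24 h, 16 of 47 rose and 0 fell by limma (19 had an unadjusted p under 0.05), with a median of 0.11 log2, while 20.0% of all genes rose and 10.5% fell. All 16 genes that rose at 24 h also rose at 72 h, each with a larger estimate, and a further 15 rose at 72 h without a call at 24 h. Of the 16, only PSMA2, PSMC4, PSMD12 and PSMG3 were called for the difference between the durations. The calls at 24 h depended on the scaling of the arrays. With quantile normalization 8 of the 47 rose and 2 fell, beside 15.8% and 13.2% of all genes. With the 50th percentile 4 rose and 0 fell, beside 6.74% and 8.51% of all genes. With normexp background correction 4 rose and 1 fell, beside 11.1% and 11.2% of all genes. The share of higher among all genes called at 24 h moved too, from 65.5% to 44.2% with the 50th percentile. At 72 h, between 25 and 32 genes rose and between 4 and 7 fell under these scalings and the main one. Of all genes, 25.8% to 35.2% rose and 28.4% to 32.5% fell under the same settings.

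**Figure D1:**
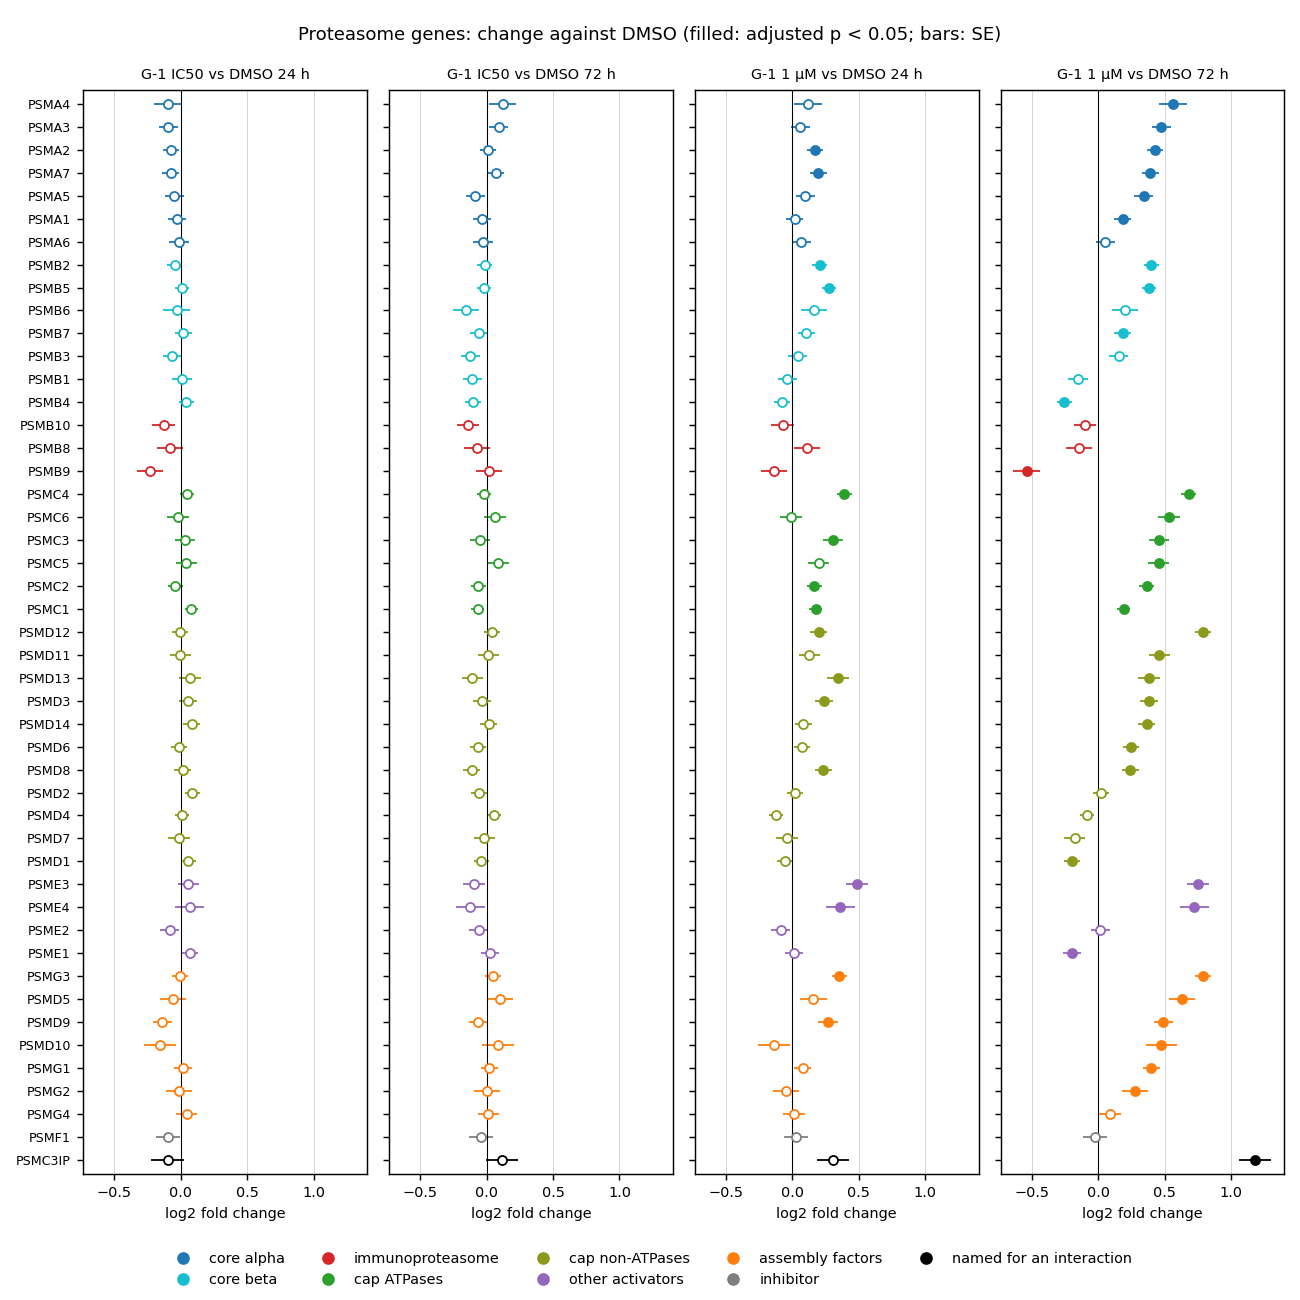
Log2 fold change (horizontal axis) of the 47 tested proteasome genes (rows, ordered by class and by the change at 1 µM for 72 h) in the 4 comparisons with DMSO. Points are limma estimates from 4 arrays against 4, bars are SE, and filled points have an adjusted p under 0.05. No point is filled for G-1 IC50, 16 are filled for 1 µM at 24 h and 35 at 72 h, of which 31 lie to the right of 0.

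G-1 at the dose labelled IC50 moved no proteasome gene past the test. At 24 h, 0 of 47 genes were called by limma, against 0.246% of all genes, and the changes lay between -0.23 and 0.09 log2. At 72 h, 0 of 47 were called, against 0.906% of all genes, and the changes lay between -0.16 and 0.12 log2. At an unadjusted p under 0.05, limma gave 1 gene at 24 h (PSMB9, -0.23 ± 0.10 log2, adjusted p = 0.96) and 0 at 72 h, and the pairwise test named in the methods, run on the same values, gave 0 and 2. IC50 and DMSO arrays lay on the same slides. On slide 1 the median change over the 47 genes was -0.01 log2 at 24 h and -0.06 log2 at 72 h, and on slide 2 it was 0.01 and 0.00 log2. These medians rest on 1 to 3 arrays a group. The SE of a single gene was between 0.05 and 0.12 log2. Changes of this size were below what 4 arrays a group could show after adjustment, so they are not excluded.

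The alpha subunits of the core, which form the outer rings and the gate, rose together at 72 h of 1 µM. Of 7, 6 rose (85.7%, beside 35.2% of all genes) and PSMA6 (0.05 ± 0.07 log2) was not called. PSMA4 read 6.28, 6.50, 6.23 and 6.55 in the DMSO arrays and 6.95, 6.76, 7.04 and 7.05 in the 1 µM arrays. All 4 treated arrays were above the highest DMSO array, and the change was 0.56 ± 0.10 log2 (adjusted p = 8.5e-05), a fold of 1.48. PSMA3 read 6.09, 6.23, 6.09 and 6.14 with DMSO and 6.76, 6.41, 6.69 and 6.60 with 1 µM. The groups of PSMA3 did not overlap either, with a change of 0.48 ± 0.07 log2 (adjusted p = 7.5e-06). The remaining called alpha subunits rose by between 0.18 (PSMA1) and 0.43 log2 (PSMA2). At 24 h, 2 of 7 rose (28.6%, beside 20.0% of all genes), PSMA2 by 0.17 and PSMA7 by 0.20 log2.

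The beta subunits of the core were less uniform. Of 7, 3 rose at 72 h (PSMB2, PSMB5 and PSMB7), 1 fell (PSMB4) and PSMB1, PSMB3 and PSMB6 were not called. The shares of 42.9% and 14.3% stand beside 35.2% and 31.0% of all genes. PSMB2, a structural member of the inner ring, read 6.20, 6.11, 6.12 and 6.14 with DMSO and 6.68, 6.50, 6.46 and 6.52 with 1 µM. Its arrays did not overlap, and it rose by 0.40 ± 0.06 log2 (adjusted p = 4.3e-06). PSMB4 fell by 0.25 on the log2 scale, with an SE of 0.06 (adjusted p = 0.00079), and its groups did not overlap. At 24 h, PSMB2 and PSMB5 rose, by 0.21 and 0.28 log2, which is 28.6% of the class beside 20.0% of all genes.

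The 3 active subunits of the constitutive core and their immunoproteasome counterparts were set side by side. PSMB5, the chymotrypsin-like subunit and the site bound by bortezomib, read 6.54, 6.55, 6.59 and 6.64 with DMSO for 72 h and 7.04, 6.89, 6.94 and 6.98 with 1 µM. Every treated array of PSMB5 was higher, with a change of 0.39 ± 0.05 log2 (adjusted p = 2.0e-06, fold 1.31). PSMB6, the caspase-like subunit, read 7.903, 8.079, 8.001 and 8.185 with DMSO and 8.299, 8.258, 8.210 and 8.199 with 1 µM. The 4 treated arrays of PSMB6 lay just above the highest DMSO array, but the change of 0.20 ± 0.10 log2 missed the threshold (adjusted p = 0.081). PSMB7, the trypsin-like subunit, read 7.68, 7.63, 7.71 and 7.87 with DMSO and 8.03, 7.81, 7.86 and 7.92 with 1 µM. Its groups overlapped, and the change of 0.19 ± 0.06 log2 was called (adjusted p = 0.017). That call was lost with the 50th percentile, normexp, no filter on dim probes, the arrays of the comparison alone and the test of the methods, and without DMSO replicate 2 or 1 µM replicate 1 of 72 h (0.15 and 0.14 log2). PSMB6 was called higher with quantile normalization, with the test of the methods and without DMSO replicate 4 of 72 h (0.25 log2).

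Of the immunoproteasome subunits, none rose and PSMB9 fell (33.3%), while 35.2% of all genes rose and 31.0% fell. PSMB9, which takes the place of PSMB6, read 4.55, 4.75, 4.56 and 4.90 with DMSO for 72 h and 4.13, 4.09, 4.05 and 4.34 with 1 µM. All 4 treated arrays were below the lowest DMSO array, and the change was -0.54 ± 0.10 log2 (adjusted p = 7.4e-05), a fold of 1.45. PSMB8, which takes the place of PSMB5, read 4.09, 4.17, 4.30 and 4.50 with DMSO and 4.00, 4.09, 4.14 and 4.25 with 1 µM. PSMB10, which takes the place of PSMB7, read 7.05, 7.23, 7.20 and 7.41 with DMSO and 7.29, 7.06, 6.96 and 7.18 with 1 µM. The groups of PSMB8 and PSMB10 overlapped, with changes of -0.14 ± 0.10 log2 (adjusted p = 0.21) and -0.10 ± 0.08 log2 (adjusted p = 0.31). With quantile normalization PSMB8 was called lower as well, at -0.24 log2. At 24 h the changes of PSMB8, PSMB9 and PSMB10 were 0.11, -0.14 and -0.07 log2, and none was called.

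**Figure D2:**
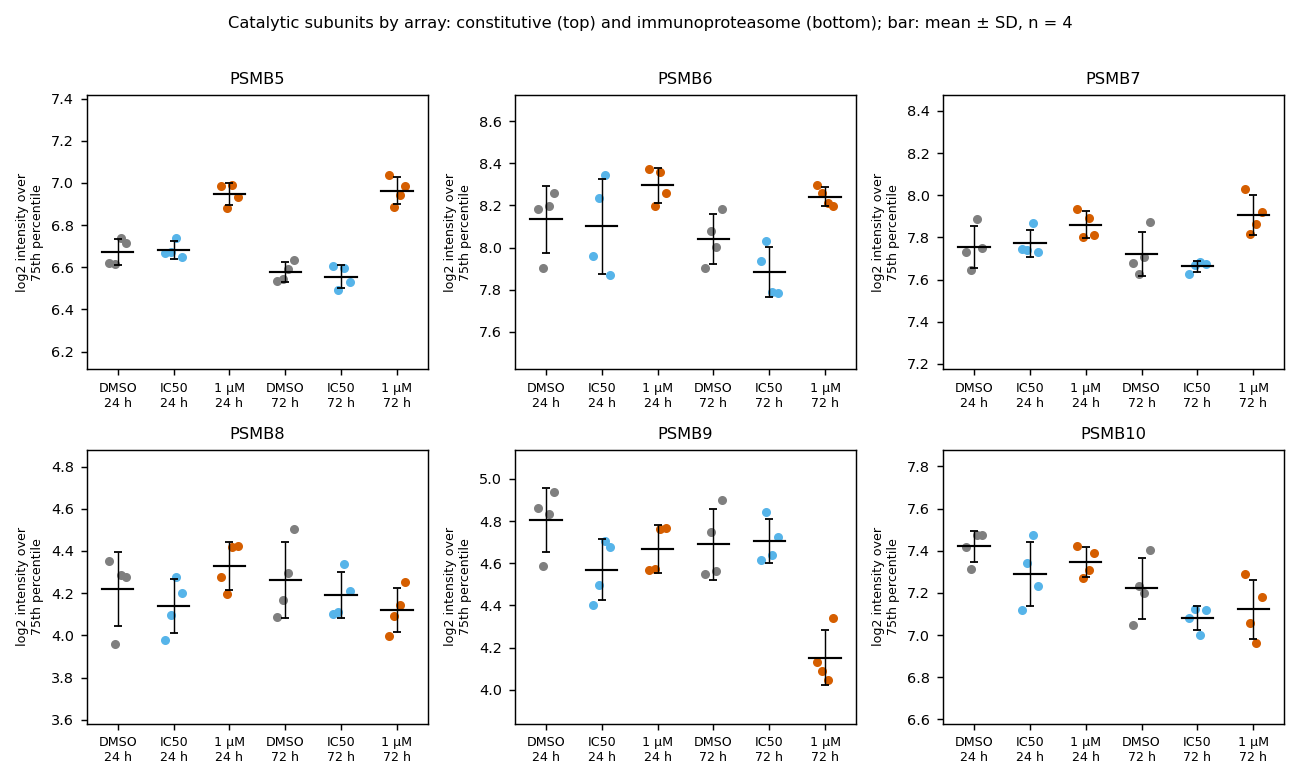
Log2 intensity above the 75th percentile of the array (vertical axis, each panel spanning the same range) of the constitutive active subunits (top) and their immunoproteasome counterparts (bottom) on the 24 arrays. Points are arrays, and lines and bars are mean ± SD of 4. The 1 µM arrays of PSMB5 lie above DMSO at both durations, and those of PSMB9 lie below it at 72 h.

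The difference between the probes of an immunoproteasome subunit and of the subunit it replaces was compared on each array, which removes any factor that scales a whole array. An effect of slide or session that depends on the probe or its intensity is not removed. The difference says how the 2 probes moved apart and not how much of each subunit was present. For PSMB9 relative to PSMB6, the difference was -3.36, -3.33, -3.44 and -3.28 log2 with DMSO for 72 h and -4.17, -4.17, -4.17 and -3.86 log2 with 1 µM. It moved by -0.74 log2, and the groups did not overlap. PSMB8 relative to PSMB5 was -2.31 ± 0.14 log2 (SD, n = 4) with DMSO and -2.84 ± 0.14 log2 (SD, n = 4) with 1 µM, a move of -0.53 log2. PSMB10 relative to PSMB7 was -0.50 ± 0.10 log2 (SD, n = 4) with DMSO and -0.78 ± 0.08 log2 (SD, n = 4) with 1 µM, a move of -0.29 log2. All 3 differences separated the 2 groups at 72 h, and each gave p = 0.029 in a two-sided exact permutation test, the smallest p that 4 arrays against 4 can give. Adjusted over the 12 tests of 3 pairs in 4 comparisons, each stood at 0.069 and so missed the threshold. Given that smallest p, no test could pass after adjustment unless most of the 12 reached it. The adjusted values therefore cannot decide on these moves. At 24 h of 1 µM the moves were -0.17 log2 for PSMB8 relative to PSMB5, -0.30 log2 for PSMB9 relative to PSMB6 and -0.18 log2 for PSMB10 relative to PSMB7, and only the first pair overlapped between groups. With IC50 the moves lay between -0.20 and 0.17 log2, none separated the groups, and the smallest adjusted p in the exact permutation tests was 0.11.

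**Figure D3:**
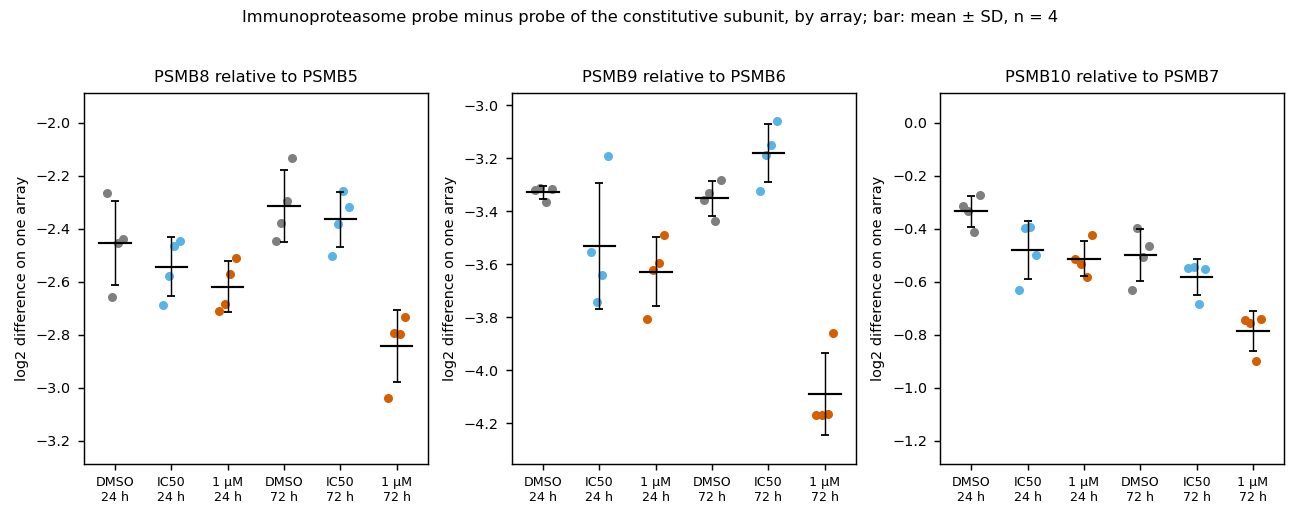
Log2 difference on one array between the probe of an immunoproteasome subunit and the probe of the subunit it replaces (vertical axis), for 3 pairs and 24 arrays. Points are arrays, and lines and bars are mean ± SD of 4. In each pair the 1 µM arrays at 72 h lie below all DMSO arrays of 72 h.

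The 6 ATPases of the cap unfold substrates at the mouth of the core. They were the only one of the larger classes in which every member rose at 72 h of 1 µM by its brightest probe, beside 35.2% of all genes. The dimmer probes of PSMC1 and PSMC2, at -0.38 ± 0.18 and 0.041 ± 0.165 log2, were not called. By the brightest probes, the changes ran from 0.19 ± 0.05 log2 for PSMC1 to 0.68 ± 0.05 log2 for PSMC4, with a median of 0.46 log2. The groups did not overlap in any of the 6. PSMC4 read 5.17, 5.12, 5.15 and 5.09 with DMSO and 5.78, 5.90, 5.82 and 5.74 with 1 µM. The lowest treated array was far above the highest DMSO array (adjusted p = 1.4e-09, fold 1.60). PSMC6 read 4.18, 4.29, 4.23 and 4.17 with DMSO and 4.94, 4.53, 4.76 and 4.76 with 1 µM, a change of 0.53 ± 0.09 log2 (adjusted p = 1.7e-05). At 24 h, 4 of 6 rose (PSMC1, PSMC2, PSMC3 and PSMC4), which is 66.7% beside 20.0% of all genes. PSMC4 stood at 0.39 ± 0.05 log2 and PSMC6, which was not called, at -0.01 ± 0.09 log2.

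Of the 11 non-ATPase subunits of the cap, 7 rose at 72 h, PSMD1 fell and PSMD2, PSMD4 and PSMD7 were not called. The shares were 63.6% and 9.09%, beside 35.2% and 31.0% of all genes. PSMD12, a scaffold subunit of the lid, read 4.33, 4.29, 4.36 and 4.32 with DMSO and 5.28, 4.97, 5.09 and 5.12 with 1 µM. It was higher on every treated array and rose by 0.79 ± 0.06 log2 (adjusted p = 1.1e-09, fold 1.73). PSMD11, another scaffold subunit of the lid, read 4.90, 4.84, 4.86 and 4.80 with DMSO and 5.50, 5.16, 5.22 and 5.37 with 1 µM, and rose by 0.46 ± 0.08 log2 (adjusted p = 3.6e-05). PSMD14, which removes ubiquitin chains as substrates enter, rose by 0.37 ± 0.06 log2. PSMD4, a ubiquitin receptor, and PSMD2, a large base subunit, had changes of -0.08 ± 0.05 and 0.02 ± 0.06 log2. PSMD1, the other large base subunit, fell by 0.20 on the log2 scale by its brightest probe, with an SE of 0.06, while its second probe rose by 0.31 ± 0.11 log2 (adjusted p = 0.014). At 24 h, PSMD3, PSMD8, PSMD12 and PSMD13 rose, which is 36.4% of the class beside 20.0% of all genes.

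Of the 4 other activators, 2 rose, 1 fell and 1 was not called at 72 h by their brightest probes. The shares were 50% and 25%, beside 35.2% and 31.0% of all genes. PSME1 and PSME2 form a ring that opens the core and is induced by interferon-γ, PSME3 forms a nuclear ring of the same family, and PSME4 is a large single-chain activator. PSME3 read 4.60, 4.55, 4.67 and 4.63 with DMSO for 72 h and 5.20, 5.37, 5.59 and 5.31 with 1 µM, so that it rose on every treated array, by 0.75 ± 0.08 log2 (adjusted p = 9.6e-08, fold 1.68). PSME4 read 2.47, 2.54, 2.40 and 2.20 with DMSO and 3.02, 3.16, 3.13 and 3.19 with 1 µM, a rise of 0.72 ± 0.11 log2 (adjusted p = 9.5e-06) by its brightest probe. Its dimmer probe fell by 0.37 on the log2 scale, with an SE of 0.09 (adjusted p = 0.0016), so the direction of PSME4 depends on the probe, and as the mean of both probes it was at 0.18 log2 and not called. PSME1 read 1.85, 1.74, 1.76 and 1.75 with DMSO and 1.52, 1.63, 1.70 and 1.49 with 1 µM. The treated arrays of PSME1 were all below DMSO, and it fell by 0.20 on the log2 scale, with an SE of 0.07 (adjusted p = 0.015). The call of PSME1 was lost without replicate 4 of 1 µM at 72 h (-0.16 log2) and when dim probes were kept in the test. PSME2 read 7.55, 7.51, 7.62 and 7.67 with DMSO and 7.69, 7.48, 7.50 and 7.75 with 1 µM, which overlapped, with a change of 0.02 ± 0.07 log2 (adjusted p = 0.84) whose sign turned with the scaling. At 24 h, PSME3 rose by 0.49 and PSME4 by 0.36 log2 (50%, beside 20.0% of all genes), and PSME1 and PSME2 were not called.

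The assembly factors, chaperones that build the rings and leave the finished particle, rose with the core and cap. Of 7, 6 rose at 72 h (85.7%, beside 35.2% of all genes), with a median of 0.48 log2 over the 7. PSMG3, which with PSMG4 guides the alpha ring, read 4.25, 4.42, 4.42 and 4.37 with DMSO and 5.15, 5.15, 5.17 and 5.13 with 1 µM. The 4 treated arrays lay close together and above all DMSO arrays, and the change was 0.79 ± 0.06 log2 (adjusted p = 4.8e-10, fold 1.73). PSMD5, a chaperone of the ATPase ring despite its subunit-like symbol, read 3.35, 3.34, 3.34 and 3.06 with DMSO and 4.06, 3.74, 3.83 and 3.98 with 1 µM, and rose by 0.63 ± 0.10 log2 (adjusted p = 1.5e-05). The other chaperones of that ring, PSMD9 and PSMD10, rose by 0.49 ± 0.07 and 0.48 ± 0.12 log2. PSMG4 changed by 0.09 ± 0.08 log2 and was not called, and its dimmer probe, well above background on 23 arrays, fell by 0.64 on the log2 scale, with an SE of 0.23 (adjusted p = 0.017). At 24 h, PSMG3 and PSMD9 rose, which is 28.6% of the class beside 20.0% of all genes.

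PSMF1, named as an inhibitor of the proteasome from assays with purified particles, read 4.16, 4.29, 4.19 and 4.23 with DMSO for 72 h and 4.32, 4.00, 4.23 and 4.23 with 1 µM. The groups overlapped, with a change of -0.02 ± 0.09 log2 (adjusted p = 0.83). Its 3 dimmer probes rose by 0.27, 0.31 and 0.33 log2, each called, so the gene has no settled direction. PSMC3IP is no subunit. It was named for binding PSMC3 and acts with MND1 in homologous recombination. PSMC3IP read 2.23, 2.20, 2.50 and 2.05 with DMSO and 3.44, 3.20, 3.62 and 3.46 with 1 µM. Every treated array was above every DMSO array, and the rise of 1.18 ± 0.12 log2 (adjusted p = 4.6e-08, fold 2.27) was the largest among the 47 genes.

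Of the 14 genes with more than 1 tested probe, 8 of the 16 further probes had the sign of the brightest probe at 72 h of 1 µM and 7 had its call. PSMB2, PSMD5, PSMD9, PSMD10 and PSMD14 rose by every probe. PSMD1 and PSME4 had probes called in opposite directions. For PSMA1 and PSMC1 the dimmer probe was at -0.25 ± 0.13 and -0.38 ± 0.18 log2, not called, beside a brightest probe that rose. The probes of a gene can lie in different transcripts, and their sequences were not analysed here.

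**Figure D4:**
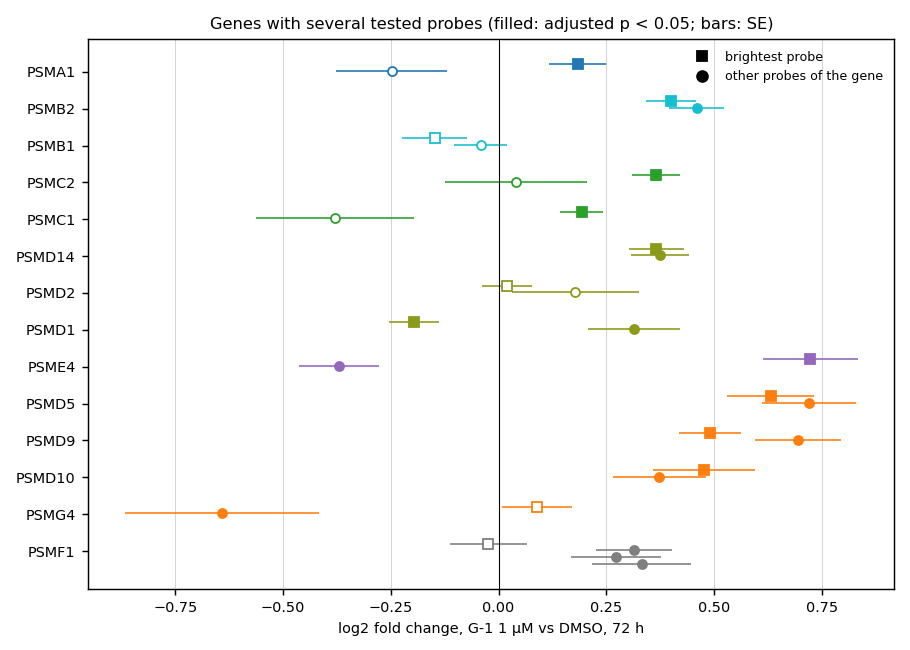
Log2 fold change at 1 µM for 72 h (horizontal axis) of every tested probe of the 14 proteasome genes with several tested probes. Squares are the brightest probe of a gene, circles its other probes, bars are SE, and filled symbols have an adjusted p under 0.05. The probes of PSMD5, PSMD9, PSMD10, PSMD14 and PSMB2 all lie to the right of 0, and those of PSMA1, PSMC1, PSMD1, PSME4, PSMF1 and PSMG4 lie on both sides of it.

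Core, cap and immunoproteasome were compared on each array as the mean of their genes relative to the DMSO mean of the same duration. At 72 h of 1 µM the 14 core alpha and beta genes stood at 0.34, 0.16, 0.22 and 0.25 log2 on the 4 arrays. The 17 cap genes stood at 0.34, 0.26, 0.30 and 0.30 log2, and the 7 assembly factors at 0.58, 0.33, 0.42 and 0.47 log2. The 3 immunoproteasome genes stood at -0.25, -0.31, -0.34 and -0.13 log2. Core and cap overlapped between arrays, while the immunoproteasome was below 0 on all 4 arrays. In the DMSO arrays of 72 h the immunoproteasome mean itself spread from -0.16 to 0.21 log2, against -0.06 to 0.08 log2 for the core. By counts, 9 core genes rose (64.3%) and 1 fell, 13 cap genes rose (76.5%) and 1 fell, and 0 immunoproteasome genes rose and 1 fell. Of all genes, 35.2% rose and 31.0% fell. With 3 genes in the smallest class, no test between classes was made.

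The change with duration was tested as an interaction, the effect of 1 µM at 72 h minus that at 24 h, which a constant offset between sessions leaves unchanged. Of 47 genes, 13 had a higher effect at 72 h and PSMB9 a lower one, which compares with 16.4% of all genes higher and 17.7% lower. The median difference was 0.17 log2 for the proteasome genes and 0.00 log2 for all genes. Changes of the DMSO arrays between the durations are part of it. From 24 h to 72 h the median over the 47 genes was -0.10 log2 with DMSO and 0.06 log2 with 1 µM. Within the 1 µM arrays, 0 of the 7 alpha subunits were called between the durations. The interaction count fell to 3 higher and 0 lower with the 50th percentile, beside 8.73% and 12.4% of all genes. When dim probes were kept in the test it fell to 6 higher and 0 lower, beside 9.85% and 11.6% of all genes. The 5 genes with the largest differences were PSMC3IP, PSMD10, PSMD12, PSMC6 and PSMD5. PSMC3IP differed by 0.88 ± 0.17 log2 (adjusted p = 0.00061) and PSMD12 by 0.59 ± 0.09 log2 (adjusted p = 3.6e-05). PSMD10 differed by 0.62 ± 0.17 log2, PSMC6 by 0.54 ± 0.12 log2 and PSMD5 by 0.47 ± 0.14 log2, with adjusted p of 0.0086, 0.0019 and 0.015 from limma, and these 3 calls were lost with the 50th percentile, that of PSMD5 also when dim probes were kept. PSMB9 differed by -0.40 ± 0.14 log2 (adjusted p = 0.033). For IC50 the interaction called 0 of 47 genes, against 0.0141% of all genes, and 0 had an unadjusted p under 0.05 in limma.

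**Figure D5:**
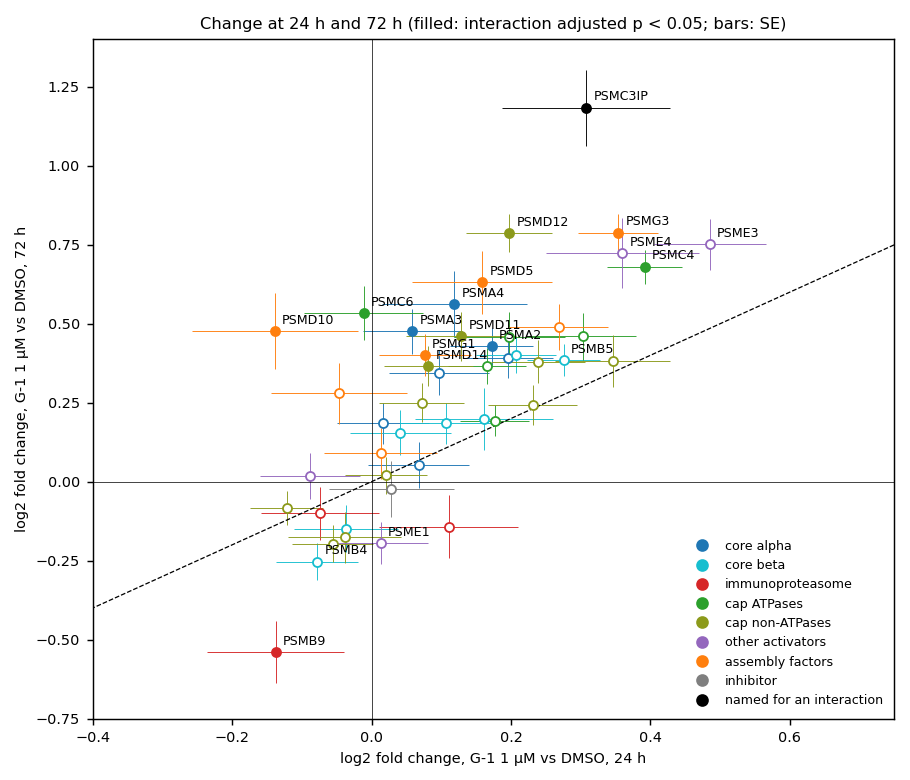
Log2 fold change of G-1 1 µM against DMSO at 24 h (horizontal axis) and at 72 h (vertical axis) for the 47 genes, coloured by class, with SE bars and a dashed line of equal change. Filled points have an adjusted p under 0.05 for the difference between the durations. Of the filled points, 13 lie above the line and PSMB9 lies below it.

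The DMSO arrays changed between the durations as well. With DMSO, 3 of 47 genes fell from 24 h to 72 h, PSMA3, PSMC6 and PSME2, beside 2.05% of all genes that fell, and 0 rose. Their changes were -0.27 ± 0.07, -0.33 ± 0.09 and -0.30 ± 0.07 log2, and the median over the 47 genes was -0.10 log2. At an unadjusted p under 0.05 there were 14, and when any one DMSO array was omitted between 0 and 1 genes were called. Within the 1 µM arrays, which share a slide and a session, 12 genes rose from 24 h to 72 h and 6 fell, beside 18.9% of all genes that rose and 24.3% that fell. This comparison was added after the data were seen. The 4 genes that rose most were PSMC3IP (0.68 ± 0.12 log2), PSMG3 (0.47 ± 0.06), PSMD12 (0.39 ± 0.06) and PSME3 (0.36 ± 0.08 log2). The 6 that fell were PSMB4, PSMB9, PSMB10, PSMD1, PSME1 and PSME2, of which only PSMB9 was also called for the interaction. PSMB9 fell by 0.52 and PSME1 by 0.43 on the log2 scale, with SE of 0.10 and 0.07, whereas PSMB10 and PSME2 fell by 0.22 and 0.20. In the DMSO arrays the changes over the same time were -0.20 ± 0.08 log2 for PSMB10 and -0.22 ± 0.07 log2 for PSME1, neither called, beside -0.30 for PSME2 as above and -0.11 ± 0.10 log2 for PSMB9, which was not called. PSMB5, which was already higher at 24 h, moved by 0.01 ± 0.05 log2 between the durations.

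Against G-1 IC50 in place of DMSO, the 1 µM arrays gave a similar count, and both comparisons share the 1 µM arrays. At 72 h, 33 genes were higher and 5 lower, beside 35.9% and 29.3% of all genes. At 24 h, 15 were higher and 0 lower, beside 18.2% and 8.32% of all genes. With the 50th percentile the median of all genes moved from 0.05 to -0.12 log2 at 24 h, and the median of the proteasome genes stood at -0.03 log2. With that scaling 1 proteasome gene was higher and 1 lower at 24 h, beside 2.88% and 12.2% of all genes. At 72 h that scaling gave 18 higher and 7 lower, beside 20.7% and 35.4% of all genes.

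Several proteins that work with the proteasome carry no PSM symbol. Of 17 such partners, 12 rose and 3 fell at 72 h of 1 µM, with a median of 0.29 log2, beside 35.2% of all genes that rose, 31.0% that fell and a median of 0.03 log2 over all genes. USP14, a deubiquitinase that docks on the cap, rose by 0.96 ± 0.19 log2, ZFAND2A, an arsenite-inducible cap-binding protein, by 0.90 ± 0.07 log2, and ADRM1, a ubiquitin receptor of the cap, by 0.85 ± 0.07 log2. ADRM1 spanned 4.46 to 4.71 with DMSO and 5.33 to 5.50 with 1 µM, which did not overlap. The 3 that fell were PAAF1, UBQLN2 and ZFAND5. Of the 9 tested genes of the NFE2L1 pathway, 4 rose and NFE2L1 itself fell, a share of 44.4% and 11.1% beside the same 35.2% and 31.0%, with a median of 0.03 log2. NFE2L1 spanned 6.52 to 6.67 with DMSO and 6.13 to 6.31 with 1 µM and changed by -0.39 ± 0.06 log2 (adjusted p = 9.5e-06). FAF2, which helps to extract proteins from the endoplasmic reticulum, rose by 0.50 ± 0.10 log2, and the ubiquitin ligase SYVN1 by 0.30 ± 0.07 log2. Of 4 genes that supply or activate ubiquitin, the activating enzyme UBA6 rose by 0.34 ± 0.08 log2, and UBA1 and UBB were not called. RPS27A, a ubiquitin fusion gene, fell by 0.27 on the log2 scale with an SE of 0.10. The share was 25% in each direction, beside 35.2% and 31.0% of all genes. The calls of SYVN1 and UBA6 were lost with the 50th percentile, and that of RPS27A with normexp, the arrays of the comparison alone, the test of the methods and without DMSO replicate 1 or 3 or 1 µM replicate 3 of 72 h (-0.24, -0.20 and -0.24 log2).

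Genes that act with the immunoproteasome in antigen presentation moved in both directions. Of 8 tested, 2 rose and 4 fell at 72 h of 1 µM, beside 35.2% and 31.0% of all genes. HLA-C spanned 6.58 to 7.32 with DMSO and 5.31 to 5.64 with 1 µM and changed by -1.59 ± 0.19 log2, and ERAP1, which trims peptides in the endoplasmic reticulum, by -0.68 ± 0.08 log2. HLA-B and the peptide-loading protein TAPBP fell by 0.65 and 0.56 on the log2 scale. The class I genes are close in sequence, and whether their probes tell them apart was not tested. The transcription factor IRF1, which drives PSMB9 and other interferon-γ targets, rose by 0.88 ± 0.10 log2, and the peptide transporter gene TAP2 by 0.66 log2. TAP1, which lies head to head with PSMB9 in the genome, changed by 0.11 ± 0.09 log2 and was not called.

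Promoter windows of 43 of the 49 genes, each from 250 bases before to 50 after a RefSeq start site (GRCh38.p14), were searched on both strands, and 2 of the sets of letters searched for are given here. TGACNNNGC, the core of the element bound by NFE2L1 and NFE2L2, was in 15 of the 43 genes (34.9%), compared with 16.1% of 27305 genes with a window. By the call of the brightest probe at 72 h of 1 µM it was in 10 of 28 genes that rose, 3 of 4 that fell and 2 of 9 that were not called. Of these, PSME4, counted as higher, and PSMD1, counted as lower, each had another probe called in the opposite direction. GAAANNGAA, part of the interferon-stimulated element, was in 8 of 43 (18.6%), compared with 9.86% of all genes. By the same calls it was in 2 of 28 genes that rose (PSMA4 and PSMC2), 2 of 4 that fell and 4 of 9 that were not called. A match describes letters only and is not a bound site.

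Stretches of 61 bases around the TGACNNNGC match are shown for 5 genes that rose by their brightest probe, with the 9 matched letters in capitals. They set letters beside members of the alpha ring, cap, assembly and activator classes. The direction of PSME4 depends on the probe, and the TGACNNNGC matches of genes that fell are not shown. The stretches are written 5′ to 3′ on the strand of the gene.
PSMA4, chr15:78540634-78540694, plus strand: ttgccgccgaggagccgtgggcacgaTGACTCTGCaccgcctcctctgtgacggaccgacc
PSMC5, chr17:63827638-63827698, plus strand: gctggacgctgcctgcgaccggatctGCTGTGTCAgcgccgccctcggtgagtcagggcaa
PSMD12, chr17:67366708-67366768, minus strand: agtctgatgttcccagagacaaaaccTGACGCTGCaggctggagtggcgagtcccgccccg
PSMD5, chr9:120843022-120843082, minus strand: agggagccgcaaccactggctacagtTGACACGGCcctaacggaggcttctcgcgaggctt
PSME4, chr2:53970993-53971053, minus strand: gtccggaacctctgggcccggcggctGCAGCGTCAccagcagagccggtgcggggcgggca
The matches of PSMA4, PSMD12 and PSMD5 start 126, 165 and 134 bases before the start site of the window that holds them, and those of PSMC5 and PSME4 start 57 and 34 bases before it and read on the opposite strand. PSMA4 has 3 windows and PSMC5 has 2, and in both genes the match lies before the most downstream start site and after the others.

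Among the matches to GAAANNGAA, 5 genes held the same letters, GAAAGCGAA or the opposite strand TTCGCTTTC, a search made after the matches were seen. These were PSMB8, PSMB10, PSME1, PSME2 and PSMG4. These letters were in 90 of the 27305 genes with a window (0.330%). None of the 28 genes with a window that rose at 72 h held them, 1 of 4 that fell did (PSME1), and 4 of 9 that were not called did. The 4 from the immunoproteasome and the interferon-induced ring are shown from 40 bases before to 21 after the start site, with the 9 letters in capitals. PSMG4, whose match starts at -33 relative to its start site and which was not called either, is not shown. Because these letters were picked from the matches in the same genes, neither their count nor their split by call is a test. The wider GAAANNGAA was in 2 of the 28 genes that rose. Whether these letters bear on the calls was not tested.
PSMB8, chr6:32844026-32844087, minus strand: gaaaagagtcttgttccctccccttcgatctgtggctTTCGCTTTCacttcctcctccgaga
PSMB10, chr16:67936829-67936890, minus strand: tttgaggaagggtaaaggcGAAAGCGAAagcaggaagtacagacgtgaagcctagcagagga
PSME1, chr14:24136154-24136215, plus strand: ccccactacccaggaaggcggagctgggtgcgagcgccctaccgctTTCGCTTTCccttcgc
PSME2, chr14:24146589-24146650, minus strand: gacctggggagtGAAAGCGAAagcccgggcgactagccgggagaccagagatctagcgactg
PSMB8 has 2 windows, and the match lies in the more downstream one. PSMB9, the gene that fell most, did not hold GAAANNGAA in its window.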

How the data were processed

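The authors deposited 1 file of spot intensities per array (24 in all) from Agilent Feature Extraction (10.7.3.1 per the submitters' processing notes, 12.1.1.1 per the file headers), background-subtracted on each array, with 0 or 1 flags for outlier, saturated and well above background. They also deposited a table of log2 values, which matched 75th-percentile-shifted, probe-centred intensities (largest difference 0.0106 log2 over 58118 probes). No spot was saturated.

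Outlier spots were left out, spots of a probe were averaged as log2, and each array was set relative to its own 75th percentile. Probes were named through RefSeq accessions (34981 of 58118 with a symbol), and a gene was represented by its brightest probe. The 22970 probes that passed the detection filter (well above background in every array of 1 or more groups) were fitted with limma 3.58.1 in R 4.3.3 as 6 group means, and p-values were adjusted over them by Benjamini-Hochberg. Subunit differences were tested with exact permutation tests (scipy), adjusted over 12. The number of arrays limits the precision. The limma fit was tested on simulated arrays for 1 µM against DMSO at 72 h, with independent noise and no slide effect. The permutation tests and the promoter search were not tested on simulated data.

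Genes with per-array values were the active and immunoproteasome subunits, PSME1, PSME2, PSMC3IP, PSMF1, the 2 called members of each class with the largest change at 1 µM for 72 h and the 5 largest interactions, with 3 genes for each further list. The members and lists were chosen with earlier results of these data known. The labels and the methods give different DMSO concentrations. B2M and CD68 had no named probe here, and NFE2L2 was not above background. From the further lists, 4 genes are not reported here, nor is 1 set of promoter letters. Normalization, background correction, filters, probe choice, trend, blocks, the methods' t-test and leaving out arrays were tried as alternatives.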

Additional observations from a re-analysis of the deposited data

Results flagged for a closer look

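Measured against DMSO arrays that changed as well, the effect of G-1 1 µM differed between 24 h and 72 h in 14 proteasome genes. They were called by limma's interaction term at an adjusted p under 0.05. The shares of the 47 genes were 27.7% higher and 2.13% lower, beside 16.4% and 17.7% of all genes. Beside the genes given above, these were PSMA2 (0.26 log2 higher at 72 h), PSMA3 (0.42), PSMA4 (0.44), PSMC4 (0.29), PSMD11 (0.33), PSMD14 (0.28), PSMG1 (0.32) and PSMG3 (0.44 log2). For PSMB9 the difference was -0.40, and for PSMC3IP, PSMC6, PSMD10, PSMD12 and PSMD5 it was 0.88, 0.54, 0.62, 0.59 and 0.47 log2. Of the genes named from the further lists, the difference was 0.74 log2 for USP14, 0.51 for ZFAND2A, 0.46 for FAF2, 0.55 for IRF1, -0.84 for HLA-C and -0.37 log2 for ERAP1. By list, 29.4% of the partners without a PSM symbol were higher and 5.88% lower. In the NFE2L1 pathway 11.1% were higher and 0% lower, and in antigen presentation 25% and 50%, beside the same shares of all genes.

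One array stood far from the other three of its group in 3 of 132 groups examined, where chance gives about 1 in 20. PSMB7 read 7.87 in replicate 3 of G-1 IC50 24 h, the highest of its group. PSMC6 read 4.71 in replicate 4 of G-1 IC50 24 h, also the highest. PSMD5 read 3.06 in replicate 4 of DMSO 72 h, the lowest, and without that array its change at 1 µM for 72 h was 0.56 log2, still called and the lowest of the leave-one-out values, which reached 0.69 log2.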

How the results depend on the processing

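Of the counts of called proteasome genes, 95 of 112 values under other settings, leave-one-out aside, stayed within 1.5 times the main count. A count of 0 that stayed 0 was scored as unchanged. This covers every setting of the IC50 comparisons with DMSO and of the IC50 interaction. The deposited table, nearly the same values as the main ones, was also among the settings. For 24 h of 1 µM against DMSO (16 genes), 10 were called with quantile normalization, 4 with the 50th percentile, 5 with normexp and 10 in a fit of those 8 arrays alone. Against IC50 at 24 h (15 genes), 2 were called with the 50th percentile and 5 with normexp, and at 72 h (38 genes) 25 with the 50th percentile. For DMSO 72 h against 24 h (3 genes), 0 were called with the 50th percentile, with no filter on dim probes, with the arrays of the comparison alone and with the methods' t-test. For the interaction of 1 µM (14 genes), 3 were called with the 50th percentile and 6 with no filter. For 1 µM at 72 h against 24 h (18 genes), 6 were called with the 50th percentile, 7 with no filter and 11 with the arrays of the comparison alone. The shares of all genes changed with the settings as well. At 24 h of 1 µM against DMSO, 20.0% rose and 10.5% fell in the main fit, and 6.74% and 8.51% with the 50th percentile. The causes were not tested. Leaving out 1 array gave 0 to 1 gene for DMSO 72 h against 24 h and 10 to 17 for 1 µM at 72 h against 24 h, the lowest of these without replicate 1 of 1 µM at 24 h.

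With the replicate number as a block, 5 genes were called for DMSO 72 h against 24 h, and 35 at 72 h of 1 µM against DMSO. Same-numbered arrays correlated between -0.32 and 0.53 in their deviations, with a median of 0.12 and over 0.1 in 33 of 60 pairs, while arrays of different number had a median of -0.04 and were over 0.1 in 38 of 180 pairs. Of 24 arrays, 15 lay closest to their own number. These values are a hint of pairing from the data, not the design: no label ties the numbers to a shared batch and not every pair was over 0.1, so the block was kept as an alternative. Signs turned for 2 named genes without a call and 1 subunit difference. PSME2 at 72 h stood at -0.0027, -0.059 and -0.088 log2 with quantile normalization, the 50th percentile and normexp, and between -0.031 and 0.059 leaving out 1 array. PSMF1 stood at 0.22 log2 as the mean of its probes (adjusted p = 0.0039 in limma) and between -0.065 and 0.042 leaving out 1 array. PSMB8 relative to PSMB5 with IC50 at 72 h ranged from -0.096 to 0.0083. The methods' t-test at its own threshold, an unadjusted p under 0.05 and a fold change above 2, kept 1 gene at 72 h of 1 µM against DMSO, and it called 36 after adjustment with no fold change.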
